A study of Mus musculus with 96 samples.

Results

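Oligomycin, an inhibitor of the mitochondrial ATP synthase, was compared with its solvent DMSO in C2C12 cells 1 day after the switch to low serum, the stage at which these mouse muscle cells have largely left the cell cycle and begun to differentiate. The comparison holds 6 of the 96 samples of the series, 3 with oligomycin and 3 with DMSO, chosen by their column labels and by no measured value. The whole series covers 35 conditions of myoblasts, day 1 cells and myotubes of this line, treated with mitochondrial inhibitors or DMSO and profiled by RNA-seq. C2C12 is an established myoblast line that fuses into myotubes when serum is withdrawn.

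The day 1 cells of all groups were untransduced. They had been grown to confluence in rich serum, changed to 2% dialyzed horse serum for 24 hr, and then given 1 µM oligomycin or DMSO for 10 hr. The same stage treated with piericidin, an inhibitor of respiratory complex I, at 0.5 µM for 10 hr served as a further comparison, with 3 samples. Oligomycin was also set beside its effect in untransduced myotubes kept in low serum for 4 days, and in proliferating myoblasts in 10% serum that carried an inducible luciferase transgene and received doxycycline at 300 ng/ml. Myoblasts therefore differed from day 1 cells in the transgene, serum and doxycycline as well as in stage, and these cannot be told apart. All cells came from 1 line, and the labels do not say whether replicates were separate cultures, so p-values measure the spread between these samples, which may be technical.

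When mitochondria fail, animal cells can start the integrated stress response. Kinases phosphorylate the translation factor eIF2α, general protein synthesis slows, and translation of the transcription factor ATF4 increases. ATF4, together with partners such as CHOP (gene Ddit3), switches on genes for amino acid synthesis, amino acid uptake and tRNA charging, secreted signals such as GDF15 and FGF21, and feedback genes that shut the response down. Oligomycin stops the ATP synthase from using the proton gradient, so that the inner membrane becomes more polarised and respiration slows; piericidin blocks electron entry at complex I.

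The 6 samples held 9354717 to 12067492 counts each. A single rRNA gene took 24.6% to 26.9% of the counts with DMSO and 26.4% to 27.6% with oligomycin. The label of the stage was checked with marker genes. The summed level of 7 proliferation markers was 252 to 271 CPM (counts scaled to a common library size) with DMSO on day 1, against 1402 to 1451 in DMSO-treated myoblasts, and the 8 myotube markers summed to 11345 to 11762 CPM, against 17.7 to 21.8 in myoblasts and 14640 to 15467 in myotubes. That sum is carried by Acta1 (median 5921 CPM on day 1 and 6201 in myotubes with DMSO), while Myh1 (284 against 1790) and Mb (46.5 against 373) were lower on day 1. With oligomycin on day 1 the proliferation markers summed to 239 to 272 CPM and the myotube markers to 10644 to 11015 CPM, and 7 markers of committed cells to 3977 to 4157 CPM, above DMSO at 3444 to 3671. Of these 7, Myog and Cdkn1a lay higher in every oligomycin sample, and Myod1, Mymk, Mymx, Mef2c and Cdkn1c lay lower. These sums are scaled over the 27 samples of all stages; levels of single day 1 samples below are scaled over the 9 day 1 samples. Of 14 markers of other cell types, 3 were at 0 in every DMSO sample and 6 in every oligomycin sample, and the summed level was 7.62 to 11.6 CPM and 8.62 to 12 CPM.

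In a principal component analysis of the 9 day 1 samples the first component carried 48.0% of the variance. Its mean score was 12.8 ± 1.15 with oligomycin, −8.11 ± 0.42 with DMSO and −4.68 ± 1.05 with piericidin (SD, n = 3 each). The 3 oligomycin samples lay apart from the other 6 (two-sided exact permutation test, p = 0.0119, the smallest p that 3 against 6 samples allow). Those 6 pool DMSO and piericidin, which themselves lay apart. Between 3 and 3 samples the smallest p this test allows is 0.1, which each pair of groups reached. Trib3, Ddit3, Chac1, Ppp1r15a and Acot2 had the highest weights and Mest and Fam167a the lowest. A second component, with 20.1% of the variance, did not follow treatment. It set oligomycin replicate 3 (7.89), piericidin replicate 1 (10.6) and piericidin replicate 3 (4.33) against the other samples (−8.10 to 0.28). Xbp1, which encodes a transcription factor of the endoplasmic reticulum (ER) stress response, was among the genes with the strongest weights there: it measured 119, 170 and 44.6 CPM with oligomycin, 44.2, 157 and 84.8 with piericidin, and 108, 164 and 152 with DMSO. Genes that shared this spread carry a wide error below, and the values of oligomycin replicate 3 are given for each of them.

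The promoters of 5 genes of the response are shown here, picked because they held a match to a motif. Trib3, which rose more than any of them, is absent because no match was found for it. ATF4 with a C/EBP partner binds a composite element, searched for as TGATGNAA on either strand in the 250 bases before each RefSeq transcript start (GRCm38.p6). Of all genes with such a window, 3.91% held the motif, as did 3 of the 11 with a window among the ISR transcription factors and feedback genes (27.3%). A match describes letters in this window, not a bound site. The 5 genes below are those of the stress and amino acid lists with a match and the largest rise with oligomycin; the match is in capitals and each sequence runs 5′ to 3′ on the gene's strand. The windows are Atf3 at chr1:191183334-191183583 (minus strand), Chac1 at chr2:119350992-119351241 (plus), Fgf21 at chr7:45615491-45615740 (minus), Slc7a11 at chr3:50443614-50443863 (minus) and Nupr1 at chr7:126625471-126625720 (minus).
Atf3: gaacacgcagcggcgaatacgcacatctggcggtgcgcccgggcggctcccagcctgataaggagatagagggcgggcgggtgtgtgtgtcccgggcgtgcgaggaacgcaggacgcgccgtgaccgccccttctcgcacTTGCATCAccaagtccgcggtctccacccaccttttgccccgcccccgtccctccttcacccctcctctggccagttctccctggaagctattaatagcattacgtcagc
Chac1: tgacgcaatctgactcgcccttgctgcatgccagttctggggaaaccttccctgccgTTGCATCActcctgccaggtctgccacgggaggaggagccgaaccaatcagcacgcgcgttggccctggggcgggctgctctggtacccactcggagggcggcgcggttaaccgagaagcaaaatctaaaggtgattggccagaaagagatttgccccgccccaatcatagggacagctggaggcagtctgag
Fgf21: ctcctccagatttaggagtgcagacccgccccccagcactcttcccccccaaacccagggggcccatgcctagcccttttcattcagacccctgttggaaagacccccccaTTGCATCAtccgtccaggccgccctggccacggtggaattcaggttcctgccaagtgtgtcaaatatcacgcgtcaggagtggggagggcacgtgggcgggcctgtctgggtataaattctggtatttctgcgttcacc
Slc7a11: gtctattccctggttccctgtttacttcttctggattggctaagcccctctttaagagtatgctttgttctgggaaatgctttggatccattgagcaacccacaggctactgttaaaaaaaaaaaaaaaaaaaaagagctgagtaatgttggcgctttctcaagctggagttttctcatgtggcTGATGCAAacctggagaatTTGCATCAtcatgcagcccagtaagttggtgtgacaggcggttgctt
Nupr1: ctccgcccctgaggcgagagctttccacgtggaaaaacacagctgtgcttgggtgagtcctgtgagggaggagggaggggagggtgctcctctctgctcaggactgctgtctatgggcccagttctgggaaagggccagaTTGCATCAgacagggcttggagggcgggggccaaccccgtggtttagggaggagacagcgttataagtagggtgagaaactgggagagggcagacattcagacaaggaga
In 4 of these windows a single match read TTGCATCA, the element on the opposite strand; the Slc7a11 window held 2 matches, 1 in each orientation. Atf3, Chac1 and Nupr1 belong to the factors and feedback genes described next, Fgf21 to the secreted factors and Slc7a11, the cystine transporter, to the amino acid transporters.

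Across all genes, oligomycin shifted 2570 of the 11827 genes tested (21.7%; edgeR quasi-likelihood test, adjusted p under 0.05), 1325 higher (11.2%) and 1245 lower (10.5%). Each count of list members called for oligomycin against DMSO on day 1 is to be read against these shares. Most shifts were small. Among the called genes the median size was 0.44 on the log2 scale, and 197 genes (1.67%) were at least 2-fold higher and 135 (1.14%) at least 2-fold lower. The median log2 fold change of all genes tested was 1e-04. In bulk RNA, fewer cells of a type and less RNA per cell cannot be told apart.

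The 12 named genes in each direction are marked in the plot of fold change against level.

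**Figure D1:**
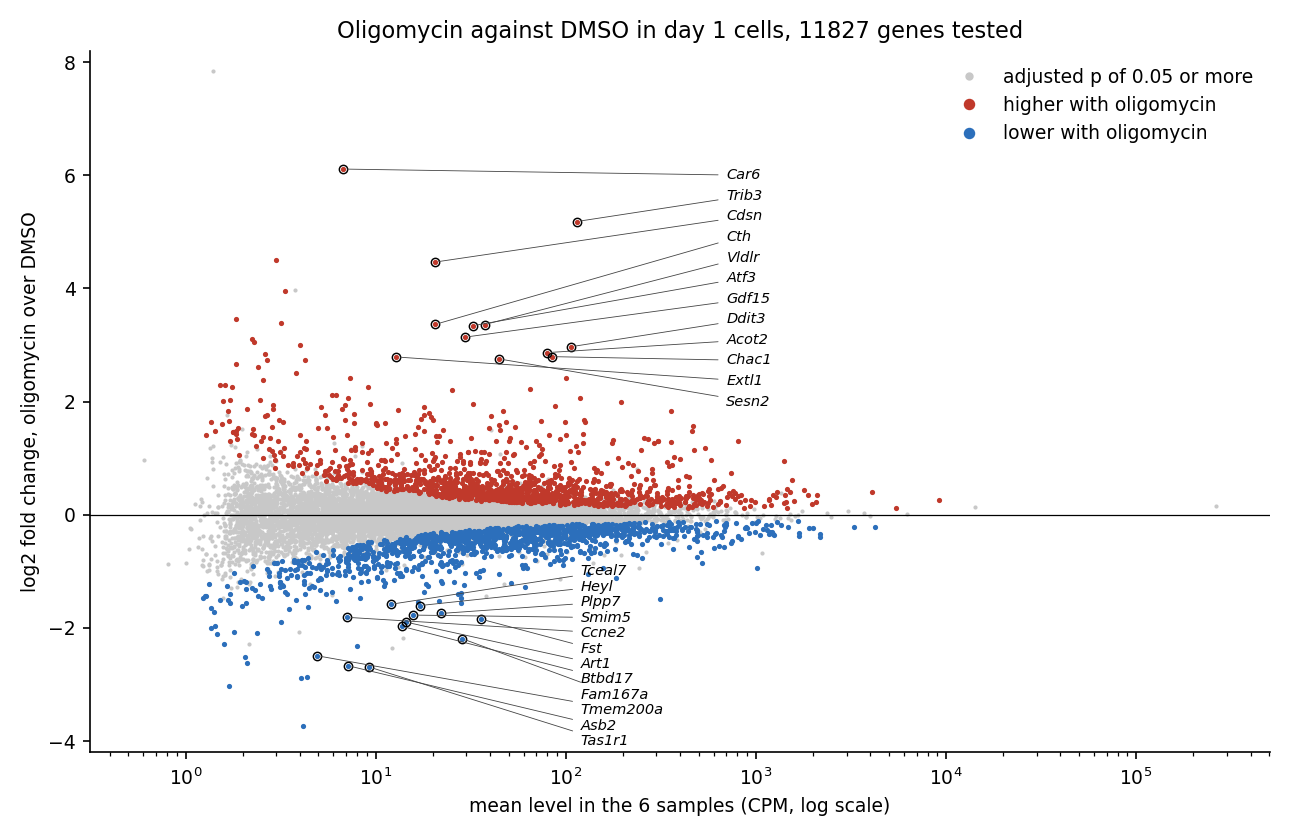
Each dot is 1 of the 11827 genes tested in day 1 cells, with its mean level (CPM, log axis) on the x axis and its log2 fold change with oligomycin over DMSO on the y axis; coloured dots passed the test (1325 higher, 1245 lower). The labelled genes are the 12 named in each direction, with Car6 and Trib3 highest and Tas1r1 and Asb2 lowest.

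Of the 13 ISR transcription factors and feedback genes, 12 passed the filter and 11 of them rose, against 11.2% of all genes; none fell, and the median log2 fold change was 1.98. Atf4 itself (chr15:80255184-80257541) measured 240, 241 and 246 CPM with DMSO and 680, 670 and 675 with oligomycin. The 3 treated samples lay far above the controls and hardly differed among themselves. The rise was 2.78-fold (log2 fold change 1.48 ± 0.04 SE, adjusted p = 8.5e-14). This is the level of the transcript; translation of ATF4 was not measured.

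Trib3, a pseudokinase that ATF4 and CHOP induce and that restrains both, showed the most pronounced change of this group. It measured 5.68, 6.57 and 6.05 CPM with DMSO and 219, 223 and 223 CPM with oligomycin. The groups were separated by more than an order of magnitude, at 36.3-fold (log2 fold change 5.18 ± 0.09, adjusted p = 2.43e-16). The gene lies at chr2:152337422-152344032. Ddit3, which encodes CHOP, a transcription factor linked to cell death under lasting stress, went from 22.8, 26.2 and 23.6 CPM to 188, 190 and 191 CPM. All 3 treated samples were within a narrow band above every control, a 7.84-fold rise (adjusted p = 3.41e-14). The counting did not use strand, and Ddit3 shares 68 exon bases with the oppositely transcribed tRNA synthetase gene Mars.

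Atf3, a stress-induced transcription factor, measured 5.19, 6.09 and 6.13 CPM with DMSO and 58.4, 61.2 and 57.6 with oligomycin. The treated samples were all high, with a 10.1-fold rise (log2 fold change 3.34 ± 0.12, adjusted p = 1.06e-12). Chac1, an enzyme that degrades glutathione, was at 21.6, 21 and 21.1 CPM with DMSO and at 147, 143 and 153 CPM with oligomycin. The controls were nearly identical and the groups did not overlap (6.94-fold, adjusted p = 3.41e-14). Sesn2, an inhibitor of the growth kinase complex mTORC1, measured 9.70, 11.8 and 12.8 CPM with DMSO against 81.9, 78.4 and 72.4 with oligomycin. It rose in every treated sample (log2 fold change 2.75 ± 0.13, adjusted p = 8.71e-11). Ppp1r15a, also known as GADD34, the phosphatase subunit that reverses eIF2α phosphorylation, went from 29.1, 34.7 and 30.8 CPM to 170, 172 and 165 CPM, and again the groups lay apart (log2 fold change 2.42 ± 0.08, adjusted p = 6.7e-13).

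Lesser rises were seen for Cebpg, a dimer partner of ATF4 (log2 fold change 1.55 ± 0.15), for Nupr1, a small stress-induced chromatin protein (1.42 ± 0.07), for Atf5 (1.4 ± 0.24) and for Eif4ebp1, a repressor of cap-dependent translation (1.34 ± 0.05). Ddit4, another mTORC1 inhibitor, was the member that did not pass: it measured 3.52, 2.95 and 3.71 CPM with DMSO and 6.23, 6.41 and 2.60 with oligomycin. Oligomycin replicate 3 lay below all controls (log2 fold change 0.58 ± 0.38, adjusted p = 0.335), and this sample was among those that stood apart on the second component. Cebpb had too few counts to be tested.

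**Figure D2:**
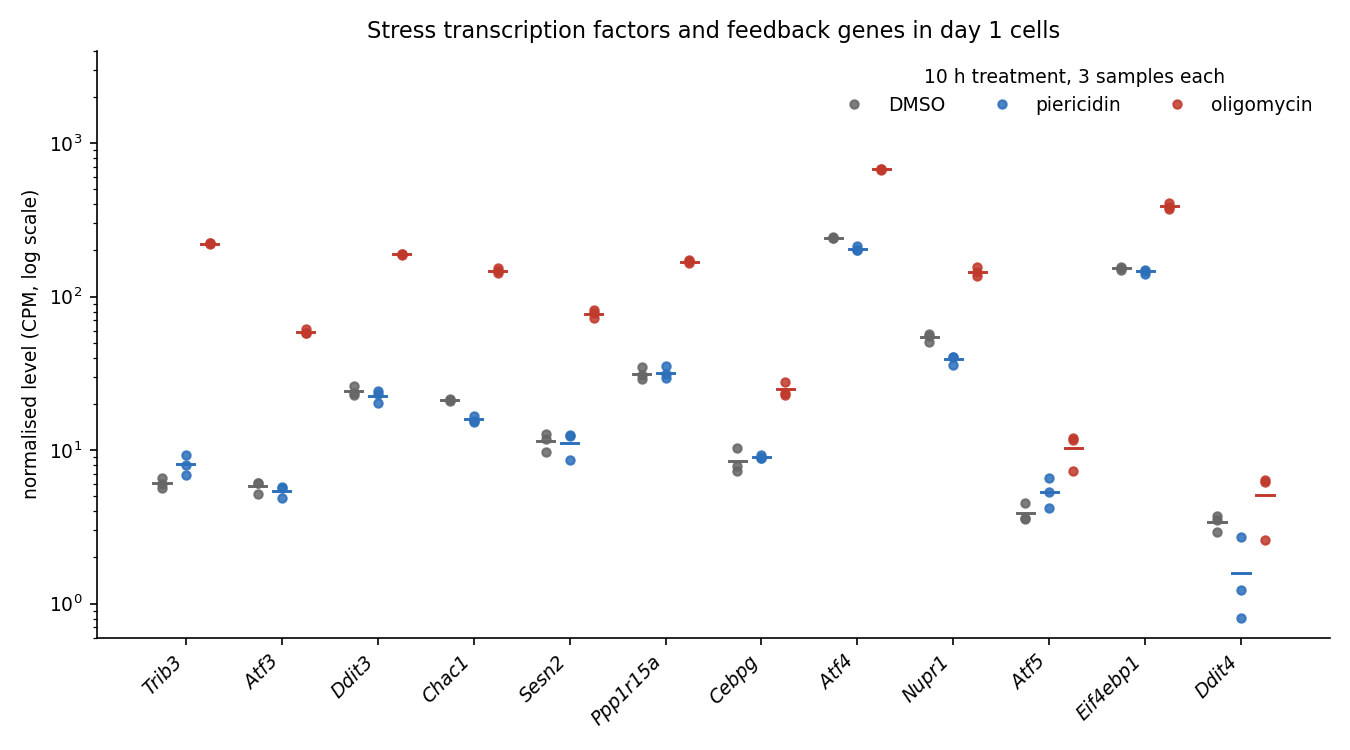
Levels (CPM, log axis) of the 12 tested ISR transcription factors and feedback genes in day 1 cells; each point is 1 sample of DMSO, piericidin or oligomycin, and the short line is the mean of 3. For Trib3 the oligomycin points lie at 219 to 223 CPM, above DMSO at 5.68 to 6.57 and piericidin at 6.90 to 9.30, and only for Ddit4 do oligomycin and DMSO points overlap.

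The kinases that phosphorylate eIF2α changed little in transcript level. Eif2ak1 encodes HRI, a kinase that can relay mitochondrial stress. Eif2ak1, Eif2ak2, Eif2ak3 and Eif2ak4 had log2 fold changes of −0.13, −0.01, 0.30 and 0.02 and did not pass the test. Oma1, which encodes the inner membrane protease of the HRI relay, did not pass either (0.14 ± 0.15, adjusted p = 0.591). Of the 7 genes tested in this list, 2 rose by small amounts, against 11.2% of all genes. They were Eif2s1, which encodes eIF2α (0.20 ± 0.05), and Ppp1r15b, its constitutive phosphatase subunit (0.31 ± 0.10). These are mRNA levels and do not measure kinase activity.

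Among the 8 stress-induced secreted factors tested, 4 rose and 1 fell, against 11.2% and 10.5% of all genes. Gdf15, a hormone that acts on the brainstem to reduce appetite, measured 5.09, 6.47 and 6.46 CPM with DMSO and 49.8, 55.5 and 54.2 with oligomycin. The treated samples were uniformly high (8.81-fold, log2 fold change 3.14 ± 0.14, adjusted p = 3.32e-11). Fgf21, a metabolic hormone that muscle releases under mitochondrial stress, started higher, at 40.2, 49.96 and 47.1 CPM, and reached 189, 186 and 201 CPM. The groups did not overlap (4.19-fold, log2 fold change 2.07 ± 0.08, adjusted p = 2.62e-12). The angiogenic factor Vegfa (1.54 ± 0.26) and the glycoprotein hormone Stc2 (0.91 ± 0.28) also rose, both from below 4 CPM. Angptl4, a secreted inhibitor of lipoprotein lipase, fell (−0.44 ± 0.08, adjusted p = 0.000486). Lif, Inhba and Ctgf did not pass the test, and Il6 and Areg had too few counts.

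Most enzymes that make amino acids and one-carbon units rose. Of 11 serine and one-carbon enzymes tested, 9 rose, 1 fell and 1 did not pass, with a median of 0.97. Aldh1l2, the mitochondrial 10-formyltetrahydrofolate dehydrogenase, went from 35.8, 36.9 and 37.7 CPM to 139, 143 and 137 CPM, with all treated samples high and alike (log2 fold change 1.92 ± 0.07, adjusted p = 1.68e-12); it shares 1056 exon bases with D10Wsu102e on the other strand. The mitochondrial folate enzymes Mthfd2 (1.36 ± 0.05), Mthfd1l (1.36 ± 0.09) and Shmt2 (1.27 ± 0.04) rose more than 2-fold each, and the enzymes of serine synthesis from glucose by 1.64 ± 0.07 (Psph), 0.97 ± 0.05 (Phgdh) and 0.62 ± 0.05 (Psat1). Of their cytosolic counterparts, Mthfd1 rose by 0.31 ± 0.07 and Shmt1 did not pass (0.37 ± 0.16, adjusted p = 0.115).

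Of 11 enzymes of asparagine, proline, cysteine and transaminase pathways, 6 rose and none fell. Cth, cystathionine γ-lyase, which makes cysteine, measured 2.45, 5.23 and 3.23 CPM with DMSO and 36.3, 40.1 and 36.1 with oligomycin. The groups lay far apart (10.3-fold, log2 fold change 3.36 ± 0.19, adjusted p = 7.12e-10). Bcat1 (branched-chain transamination, 1.65 ± 0.07), Asns (asparagine synthetase, 1.30 ± 0.05), Aldh18a1 and Pycr1 (proline synthesis, 1.27 ± 0.06 and 0.91 ± 0.09) and Got1 (0.87 ± 0.07) rose as well. The mitochondrial partner of Got1 had a log2 fold change of −0.05 ± 0.06 (Got2, adjusted p = 0.643). Gpt2, an alanine transaminase, measured 166, 182 and 168 CPM with DMSO and 324, 371 and 207 with oligomycin. All treated samples exceeded the controls, but replicate 3 was low and the difference did not pass (0.81 ± 0.25, adjusted p = 0.0673).

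Amino acid transporters followed, with 9 of 13 higher, none lower and a median of 1.17. Slc6a9, the glycine transporter GLYT1, went from 22.3, 21.2 and 25.2 CPM to 113, 111 and 98.1 CPM, with no overlap between the groups (log2 fold change 2.23 ± 0.09, adjusted p = 4.94e-12). Its exons share 1429 bases with Ccdc24 on the other strand, so the reads could belong to either gene. Slc7a11, whose promoter window held a pair of matches, rose from 4.31, 3.23 and 2.91 CPM to 14.2, 9.88 and 11.7 CPM (1.78 ± 0.24, adjusted p = 2.89e-05). The shared heavy chain of such transporters, Slc3a2, rose by 1.56 ± 0.05, and its leucine-carrying partner Slc7a5 by 1.35 ± 0.13. The 2 glutamine carriers Slc38a1 and Slc38a2 rose by 0.33 ± 0.07 and 0.25 ± 0.06 only. Slc7a6, Slc38a10, Slc43a1 and Slc36a1 did not pass the test.

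Cytosolic tRNA synthetases, which charge tRNAs with amino acids, rose in 15 of 20 cases and fell in none (median 0.82). The largest were Eprs (1.31 ± 0.05), Sars (1.29 ± 0.04), Wars (1.26 ± 0.07) and Gars (1.15 ± 0.04). Dars and Farsa did not pass, at 0.13 ± 0.06 and 0.03 ± 0.06. Of 17 mitochondrial tRNA synthetases only Tars2 rose (0.42 ± 0.09, adjusted p = 0.00255), and the median was 0.06.

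Mitochondrial chaperones and proteases rose in 7 of 14 cases, and none fell. Lonp1, the matrix protease, measured 24.5, 24.1 and 22.2 CPM with DMSO and 72.0, 58.4 and 68.4 with oligomycin, all treated samples being above the controls (1.49 ± 0.12, adjusted p = 5.06e-08). Hspa9, the matrix HSP70, rose by 1.30 ± 0.04 and Dnaja3, its co-chaperone, by 1.1 ± 0.06, whereas the chaperonin genes Hspd1 and Hspe1 rose by 0.53 ± 0.04 and 0.28 ± 0.07. The inner membrane proteases Yme1l1, Afg3l2 and Spg7 did not pass the test.

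ER chaperones and XBP1 targets moved the other way on balance, with 4 of 20 higher and 11 lower (median −0.37; 10.5% of all genes were lower). Herpud1, a component of ER-associated degradation, rose by 1.15 ± 0.06, and Edem1, Atf6 and Sel1l by 0.46 to 0.62. Creld2 (−0.75 ± 0.06) and Manf (−0.70 ± 0.06) fell, as did Sdf2l1 (−1.18 ± 0.32, adjusted p = 0.0426), which measured 17.2, 19.3 and 10.7 CPM with oligomycin against 27, 39.1 and 40.9 with DMSO. Oligomycin replicate 3, which had the low Xbp1, was also lowest for Sdf2l1; without it 10 members were lower and 4 higher. Hspa5, the central ER chaperone BiP, stood at 1017, 990 and 1008 CPM against 1022, 1039 and 1020, and did not pass (−0.03 ± 0.03, adjusted p = 0.572). Cytosolic heat shock genes were lower in 6 of 14 cases, among them Hspa8 (−0.35 ± 0.03), Dnaja1 (−0.51 ± 0.05) and Dnajb1 (−0.49 ± 0.07), and higher in 2, Hsf1 (0.38 ± 0.07) and Hspb1 (0.16 ± 0.04). NRF2 antioxidant genes were split, 3 higher (Hmox1, Tkt and Fth1) and 3 lower (Txn1, Prdx1 and Taldo1) of 15, against 11.2% and 10.5% of all genes. Hmox1, heme oxygenase, rose by 1.08 ± 0.08, while Nqo1 (0.43 ± 0.17) and Gclm (0.37 ± 0.23) did not pass.

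Transcripts that host snoRNAs in their introns rose in 10 of 11 cases (median 0.97). Such spliced host RNAs are commonly degraded when they are translated, and accumulate when translation slows. Snhg12 went from 8.03, 9.90 and 7.75 CPM to 30.1, 28.6 and 30.6 CPM and Gas5 from 79.3, 72.3 and 68.9 to 135, 139 and 147 CPM. In both the groups lay apart (log2 fold changes 1.80 ± 0.13 and 0.93 ± 0.06, adjusted p = 1.91e-08 and 8.16e-09). Snhg3 did not pass (0.00 ± 0.27).

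**Figure D3:**
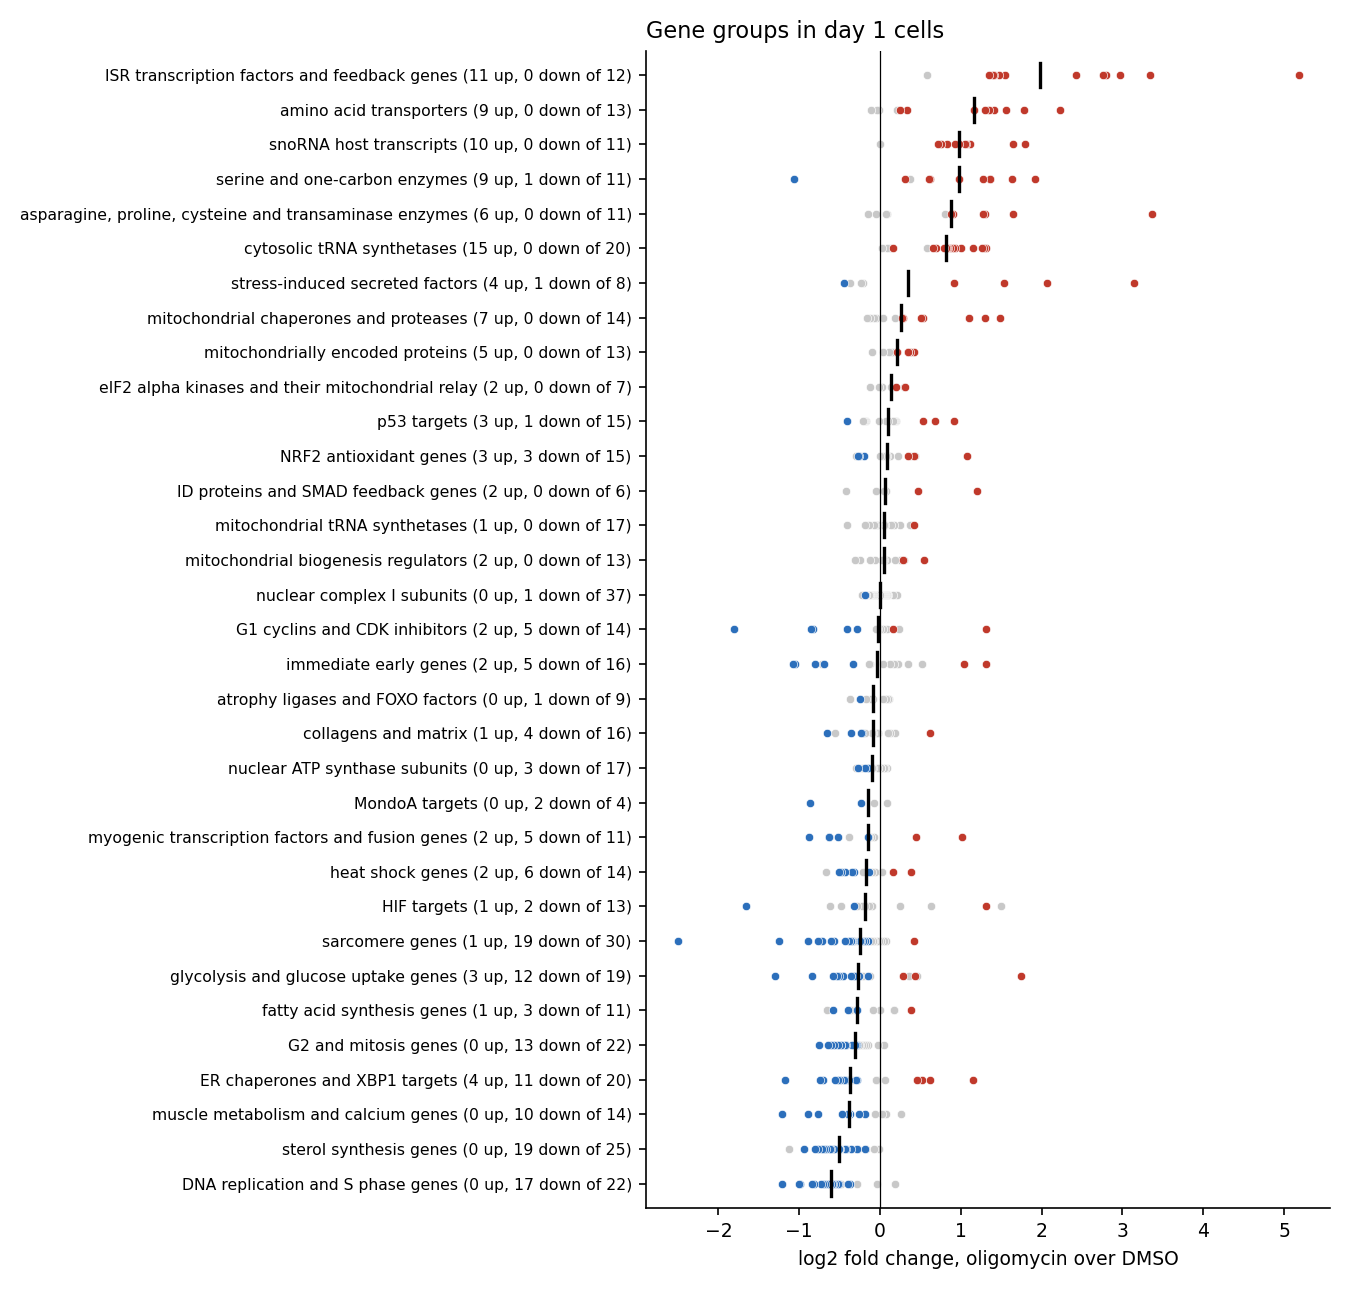
Log2 fold changes of the members of 33 gene lists with oligomycin over DMSO in day 1 cells; each dot is a gene, red if it rose, blue if it fell and grey if it did not pass the test, and the black tick is the median of the list. The ISR factors (11 of 12 higher), tRNA synthetases (15 of 20), transporters (9 of 13) and snoRNA hosts (10 of 11) lie to the right, and sterol (19 of 25 lower) and S phase genes (17 of 22 lower) to the left.

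Several of the highest folds belonged to genes outside these lists. Car6, a secreted carbonic anhydrase, was almost silent with DMSO, with 1, 3 and 2 counts, and had 134, 85 and 152 counts with oligomycin. Per library size the ratio of the sums (371 against 6 counts) was 73.5, with a 95% interval for counting error of 33.4 to 201. Cdsn, an adhesion protein of the skin, rose from 2.06, 1.9 and 1.37 CPM to 36.4, 44.0 and 36.9 CPM (22.1-fold, adjusted p = 1.24e-11). Vldlr, a lipoprotein receptor, measured 7.54, 5.42 and 6.94 CPM with DMSO and 66.8, 73.1 and 65.2 with oligomycin. The treated samples were all high (10.3-fold, adjusted p = 3.27e-12). Extl1, a glycosyltransferase of the exostosin family, rose 6.91-fold (adjusted p = 4.7e-08). Acot2, an acyl-CoA thioesterase of mitochondria, measured 20.2, 18.4 and 19.3 CPM with DMSO and 173, 188 and 61.2 with oligomycin. Replicate 3 was well below the other treated samples but above the controls (log2 fold change 2.87 ± 0.51, adjusted p = 0.00874; 3.22 with adjusted p = 0.00106 without it), and reads of Acot2 may be shared with its close paralogs.

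Sterol synthesis genes fell together. Of 25 tested, 19 fell, none rose, all had a negative fold change and the median was −0.51, against 10.5% of all genes lower. Idi1, isopentenyl diphosphate isomerase, measured 118, 121 and 112 CPM with DMSO and 66.1, 64.1 and 70.8 with oligomycin, with every treated sample low (−0.80 ± 0.06, adjusted p = 4.05e-08). Acat2 (−0.94 ± 0.07), Cyp51 (−0.76 ± 0.06) and Hsd17b7 (−0.72 ± 0.12) fell likewise. Insig1, which retains the sterol sensor in the ER, measured 104, 143 and 135 CPM with DMSO and 63.8, 82.0 and 29.0 with oligomycin. The groups did not overlap, but the treated samples were spread, replicate 3 lowest, and the test was not passed (adjusted p = 0.178). Fatty acid synthesis genes were mixed: Scd2 (−0.58 ± 0.04), Elovl6 (−0.39 ± 0.13) and Srebf1 (−0.29 ± 0.07) fell, Fads1 rose (0.38 ± 0.07) and Fasn, Acaca and Acly did not pass.

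Genes of DNA replication were mostly lower with oligomycin, those of mitosis in part, and the G1 list had calls in both directions. Of 22 DNA replication and S phase genes, 17 fell and none rose (median −0.60). Mcm5, a subunit of the replicative helicase, went from 37.0, 29.3 and 30.6 CPM to 17.4, 17.1 and 13.9 CPM, and Tk1, thymidine kinase, from 28.3, 28.0 and 26.6 to 14.4, 12.3 and 14.9. All treated samples of both genes were below all controls (−1.0 ± 0.12 and −0.99 ± 0.11, adjusted p = 9.63e-06 and 3.38e-06). Cdc6 and Lig1 fell as well (−1.22 ± 0.31 and −0.84 ± 0.18), while Mcm7 and Cdt1 did not pass. Of 22 G2 and mitosis genes 13 fell and none rose (median −0.31), but only 8 did without DMSO replicate 1, DMSO replicate 2 or oligomycin replicate 2. Of 14 G1 cyclins and CDK inhibitors 5 fell and 2 rose (median −0.03), against 10.5% and 11.2% of all genes. Ccne2, cyclin E2, fell from 10.9, 10.8 and 11.3 CPM to 1.75, 3.47 and 4.12 CPM (−1.81 ± 0.26, adjusted p = 5.68e-05; its exons overlap Ints8 on the other strand), and Ccne1 (−0.85 ± 0.16), Cdkn1c, Cdk2 and Ccnd3 fell less. Ccnd2, cyclin D2, rose from 22.2, 25.4 and 26.0 CPM to 65.7, 59.0 and 58.1 CPM (1.31 ± 0.09), as did the growth regulator Myc, from 28.8, 27.4 and 31.1 to 71.3, 71.5 and 73.5 CPM (1.31 ± 0.09, adjusted p = 1.89e-08). In both the treated samples lay more than 2-fold above the controls. Cdkn1a, the CDK inhibitor p21, rose by 0.16 ± 0.04. The summed proliferation markers given above overlapped between oligomycin and DMSO, but their members differed in direction. Mki67 (13.5 to 14.1 against 15.2 to 21.6 CPM), Top2a (58.3 to 61.3 against 68.9 to 76.4) and Ccnb1 (31.0 to 41.0 against 41.2 to 49.4) lay lower in every oligomycin sample. The other members, which are not cell cycle genes, were split. Myf5 and Id1 lay higher in every oligomycin sample and Pax7 lay lower (7.02 to 11.2 against 12.1 to 12.98 CPM). Id3 overlapped between the groups (57.84 to 66.96 against 64.06 to 68.32 CPM).

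The muscle program changed unevenly. Of 30 sarcomere genes 19 fell and 1, Myom2, rose (0.42 ± 0.05; median of the list −0.25), and of 14 muscle metabolism and calcium genes 10 fell and none rose (median −0.38). Of the members that did not pass, Acta1 and Mylpf had the highest counts: Acta1, skeletal actin, was at 6039, 6202 and 6364 CPM with DMSO and 6182, 6117 and 6410 with oligomycin (0.01 ± 0.03, adjusted p = 0.885), and its groups overlapped. Tcap, titin cap, fell from 3.52, 3.90 and 3.15 CPM to 0.437, 0.736 and 0.651 CPM (−2.51 ± 0.38, adjusted p = 0.000108), and Actn2, a Z disc actinin, from 120, 127 and 127 to 76.3, 69.6 and 73.9 CPM (−0.77 ± 0.06). In both genes every treated sample was below every control. Pgam2 (−1.21 ± 0.11), Ckb (−0.77 ± 0.05), Eno3 (−0.40 ± 0.04) and Ckm (−0.18 ± 0.04), enzymes of muscle energy metabolism, fell too.

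Among the myogenic factors, Myog, which drives terminal differentiation, rose from 1449, 1538 and 1576 CPM to 2026, 2075 and 2101 CPM, and Myf5 from 21.5, 15.5 and 18.0 to 36.2, 35.3 and 40.2 CPM. The treated samples of both were the higher ones (0.44 ± 0.04 and 1.02 ± 0.12, adjusted p = 6.27e-08 and 5.66e-06). Mef2c, a factor that acts with them, fell from 37.9, 32.2 and 36.0 CPM to 17.3, 21.6 and 18.7 CPM, without overlap (−0.88 ± 0.11). The fusion genes Mymx and Mymk fell by 0.63 and 0.15 on the log2 scale, Six4 fell as well, and Myod1 did not pass (−0.11 ± 0.05, adjusted p = 0.107). Of the atrophy genes Fbxo32 and Trim63 did not pass, and 1 of the 9 tested fell, Cavin4 (−0.25 ± 0.05), a caveolar protein of muscle and neither a ligase nor a FOXO factor.

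The named genes that fell were led by Tas1r1 and Asb2. Tas1r1, a subunit of the amino acid taste receptor, went from 15.2, 17.1 and 15.9 CPM to 3.06, 2.21 and 2.17 CPM and Asb2, a muscle ubiquitin ligase subunit, from 11.8, 12.2 and 13 to 1.31, 2.52 and 1.95. The groups were well separated in both (−2.69 ± 0.22 and −2.67 ± 0.22, adjusted p = 6.81e-08 and 9.35e-08). Fst, follistatin, which blocks myostatin and activin, fell from 59.4, 50.5 and 58.6 CPM to 13.8, 16 and 17.2 CPM (−1.84 ± 0.12, adjusted p = 2.95e-09). Fam167a (−2.19 ± 0.10), Tmem200a (−2.49 ± 0.33), Btbd17 (−1.97 ± 0.18), Smim5 (−1.77 ± 0.17), the nuclear envelope protein gene Plpp7 (−1.74 ± 0.13) and the Notch effector Heyl (−1.60 ± 0.12) fell as well. Groups without overlap were a condition for the 12 genes named in each direction, so their separation adds no support. Art1, an ADP-ribosyltransferase of muscle (−1.9 ± 0.15), and Tceal7 (−1.58 ± 0.15) fell too; their exons, and those of Tmem200a, overlap genes on the other strand.

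Glucose metabolism genes fell in 12 of 19 cases and rose in 3, against 10.5% and 11.2% of all genes. Ldha, lactate dehydrogenase A, measured 658, 673 and 689 CPM with DMSO and 376, 363 and 384 with oligomycin, every treated sample being low (−0.85 ± 0.04, adjusted p = 7.65e-11). The lactate exporter Slc16a3 fell by 1.30 (SE 0.20). Hk2, the inducible hexokinase, went the other way, from 16.8, 20.6 and 18.0 CPM to 65.0, 62.1 and 59.5 CPM, and the treated samples were the high ones (1.75 ± 0.10, adjusted p = 9.58e-10). Slc2a1 and Pfkp rose by 0.43 ± 0.11 and 0.29 ± 0.06. Txnip, a glucose-responsive inhibitor of glucose uptake, fell by 0.86 (SE 0.18). Of 13 HIF targets 1 rose and 2 fell, against 21.7% of all genes called. Ndrg1, a stress-responsive gene, rose from 103, 107 and 96.0 CPM to 245, 258 and 258 CPM (1.32 ± 0.06) and Ankrd37 fell by 1.66 (SE 0.30). Ero1l, an ER oxidase, measured 71.1, 77.3 and 30.5 CPM against 16, 25.0 and 22.3 and did not pass (adjusted p = 0.0595).

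**Figure D4:**
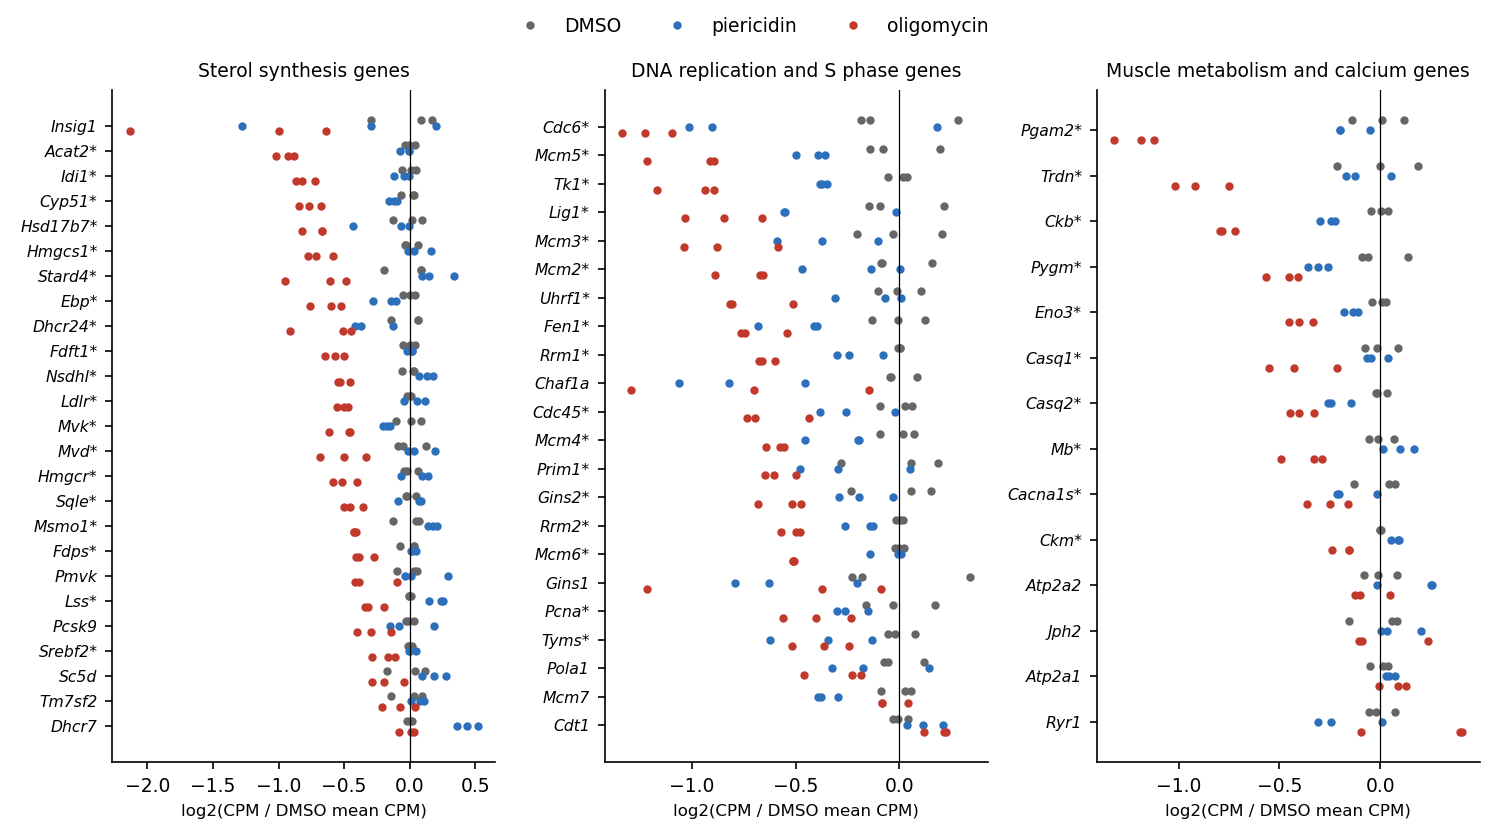
Log2 of each day 1 sample's CPM over the DMSO mean for sterol, S phase and muscle metabolism genes, with points for DMSO, piericidin and oligomycin and an asterisk on genes called for oligomycin against DMSO. Most oligomycin points of the called genes lie below 0, and for most sterol genes the piericidin points lie with DMSO.

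Genes of the inhibited machine itself moved little. The counts here stand against 10.5% of all genes lower and 11.2% higher. Of 17 nuclear ATP synthase subunits 3 fell, Atp5g3, Atp5a1 and Atp5o, by 0.27, 0.19 and 0.15, and none rose, but 6 fell without oligomycin replicate 3; Atp5b, the catalytic β subunit, was at 1486, 1502 and 1531 CPM with DMSO and 1497, 1503 and 1549 with oligomycin, and the groups overlapped (0.01 ± 0.03, adjusted p = 0.872). Of 37 nuclear complex I subunits 1 fell, Ndufs3 (−0.19 ± 0.05), and 5 did without oligomycin replicate 3. Of 13 mitochondrially encoded protein genes 5 rose, mt-Nd2, mt-Co1, mt-Co2, mt-Co3 and mt-Atp8, by 0.21 to 0.42, and none fell; the number ran from 3 to 8 when samples were left out. mt-Co1, for example, went from 1994, 1695 and 1852 CPM to 2275, 2390 and 2365 CPM, above all controls. Regulators of mitochondrial biogenesis were mostly not called: Twnk, the mitochondrial DNA helicase, rose by 0.55 ± 0.10 and Tfb2m by 0.29 ± 0.09, while Ppargc1a was near 1 CPM in both groups (−0.24 ± 0.41, adjusted p = 0.749) and Tfam did not pass.

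The remaining lists had calls in both directions or in few members, and 21.7% of all genes were called. Of 15 p53 targets 3 rose, Plk2, Eda2r and Aen (0.91 ± 0.05, 0.68 ± 0.08 and 0.53 ± 0.08), and Sesn1 fell by 0.41. Of 16 immediate early genes 2 rose, Myc and Klf4, and 5 fell, Egr1, Egr2, Egr3, Nr4a1 and Junb. Egr1 went from 180, 178 and 174 CPM to 99.6, 95.4 and 61.4 CPM, every treated sample being low (−1.05 ± 0.19, adjusted p = 0.00825). Of 16 collagen and matrix genes 4 fell, Col8a1 (−0.65 ± 0.10), Lox (−0.36 ± 0.05), Sparc and Col5a2, and 1 rose, fibronectin (Fn1, 0.62 ± 0.16, adjusted p = 0.0382), which was not called without DMSO replicate 1, 2 or 3 or oligomycin replicate 1 or 2. Smad7, the feedback inhibitor of TGFβ signalling, rose from 3.43, 6.09 and 4.6 CPM to 10.2, 9.67 and 12.6 CPM (1.20 ± 0.23), and Id1 by 0.48 ± 0.09. The 3 tested markers of other cell types, Cdh1, Pdgfra and Pecam1, did not pass, at 0.22 ± 0.41, 0.07 ± 0.27 and −0.16 ± 0.36. Junb, Nr4a1, Egr3 and Col5a2 here, and Myom2, Edem1, Atf6, Sel1l, Slc2a1 and Pfkp above, complete small counts and were picked after their values were seen.

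Piericidin shifted fewer genes at the same stage. Against the same DMSO samples it shifted 425 of 11827 genes (3.59%), 213 higher (1.8%) and 212 lower (1.79%), and 25 of them (0.211%) by at least 2-fold. The count was 258, 216 and 201 without DMSO replicate 1, 2 and 3, and 248, 291 and 211 without piericidin replicate 1, 2 and 3. The 2 comparisons share their DMSO samples. Of the 12 ISR factors and feedback genes 3 fell with piericidin, Atf4, Nupr1 and Chac1. Atf4 measured 201, 201 and 213 CPM (−0.24 ± 0.04, adjusted p = 0.00248) and Chac1 15.3, 15.6 and 16.7 CPM (−0.42 ± 0.08, adjusted p = 0.00465). Trib3, at 9.30, 8.05 and 6.90 CPM, did not pass (0.41 ± 0.11, adjusted p = 0.0547). Gdf15 rose with piericidin as well, to 11, 8.25 and 12.2 CPM (0.80 ± 0.15, adjusted p = 0.00687), as did Cdsn (1.11), Vldlr (0.74), Hk2 (0.71) and Aldh1l2 (0.45). Fst and Fam167a fell with both inhibitors, by 1.00 and 1.08 with piericidin and by 1.84 and 2.19 with oligomycin. Tas1r1 fell with piericidin too (−1.56, adjusted p = 0.000195), as did Ccne2 (−1.03), Btbd17 (−0.71), Art1 (−0.54) and Plpp7 (−0.46). The other named genes that fell with oligomycin, Asb2, Tmem200a, Smim5, Heyl and Tceal7, did not pass with piericidin.

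Set directly against piericidin, oligomycin samples differed in 1856 genes (15.7%), 955 higher (8.07%) and 901 lower (7.62%). All 12 ISR factors and feedback genes were higher with oligomycin, Trib3 by 4.77 ± 0.09, Ddit3 by 3.07 ± 0.08 and Atf4 by 1.72 ± 0.04 on the log2 scale. Fgf21, at 44.6, 47.5 and 51.1 CPM with piericidin, differed by 2.01 ± 0.08 (adjusted p = 4.72e-12). Of the 25 sterol genes 21 were lower with oligomycin than with piericidin, and piericidin against DMSO raised 1 of them, Dhcr7 (0.44 ± 0.09); of the 22 S phase genes 9 were lower and 1, Mcm7, was higher. Of the 22 G2 and mitosis genes 1, Prc1, was lower with oligomycin than with piericidin (−0.39 ± 0.07); against DMSO their median log2 fold change was −0.31 with oligomycin (13 lower) and −0.23 with piericidin (3 lower, Cdc20, Ccna2 and Ect2). Some genes separated the inhibitors by moving with piericidin. Nmrk2, a muscle kinase of NAD synthesis from nicotinamide riboside, measured 34.7, 39.9 and 35.4 CPM with piericidin, 11.8, 12 and 11.9 with DMSO and 12.5, 10.5 and 11.4 with oligomycin. Only the piericidin samples were high (oligomycin against piericidin −1.68 ± 0.12, adjusted p = 1.06e-08); its exons overlap a transcript on the other strand. Mest, an imprinted gene of the hydrolase fold family, did the reverse, at 438, 492 and 451 CPM with DMSO, 475, 448 and 459 with piericidin and 165, 157 and 173 with oligomycin. Here the oligomycin samples alone were low (−1.48 ± 0.05 against either group, adjusted p = 1.06e-12 against DMSO). Asb2, Fbxl22 and Parm1 were also lower with oligomycin than with piericidin, by 2.62, 1.67 and 1.49 on the log2 scale; Mest and Fbxl22 overlap genes on the other strand. Ankrd37, Egr1 and Txnip did not differ past the threshold between the inhibitors (0.01 ± 0.30, −0.07 and 0.20).

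The same treatment was then compared across stages, in a fit of 27 samples in which day 1 cells had 2633 of 12655 genes called (20.8%), myotubes 3763 (29.7%) and myoblasts 6004 (47.4%). Of the 1316 genes higher on day 1 (10.4%), 986 were also higher in myotubes (74.9% of the day 1 genes and 48.4% of the 2037 myotube genes, which were 16.1% of all) and 7 were lower. Of the 1317 lower on day 1 (10.4%), 757 were lower in myotubes (57.5% and 43.9% of 1726, which were 13.6% of all) and 16 higher. In myoblasts 1013 of the higher genes were higher too (77.0% and 35.8% of 2829, which were 22.4% of all) and 828 of the lower genes lower (62.9% and 26.1% of 3175, which were 25.1% of all), with 46 and 85 in the opposite direction. These comparisons share no samples. Across all 12655 genes, which are not independent replicates, the log2 fold changes of day 1 cells had a Pearson r of 0.547 with myotubes and 0.449 with myoblasts.

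The response itself differed between day 1 cells and myotubes in 483 genes (3.82%; interaction in the same fit), 139 higher (1.1%) and 344 lower (2.72%) on day 1, so that 28.8% of the calls were higher; this share was 45.6% in a fit of these groups alone and 52.3% without the filter on low counts. The number was 265 without myotube DMSO replicate 3, 292 without DMSO replicate 3 and 304 without DMSO replicate 2 of day 1. Among the ISR factors Atf3 rose less on day 1 (difference of log2 fold changes −2.30 ± 0.16, adjusted p = 4.14e-11): on the CPM scale shared by the 27 samples, which the stage comparisons use, it reached 55.8 ± 1.65 CPM on day 1 and 184 ± 4.73 CPM in myotubes (SD, n = 3). Ddit3 (−1.1 ± 0.10), Ppp1r15a (−0.82 ± 0.11) and Atf4 (−0.22 ± 0.05) also rose less on day 1, while Trib3 (0.50 ± 0.13) and Chac1 (0.57 ± 0.13) rose more; Sesn2 did not differ past the threshold (0.40 ± 0.17, adjusted p = 0.231). Gdf15 rose less on day 1 (−1.44 ± 0.22), from a higher DMSO level (5.72 ± 0.78 CPM on day 1, 1.91 ± 0.28 in myotubes) to treated levels of 50.2 ± 2.76 and 45.5 ± 0.88 CPM. Aldh1l2 (0.03 ± 0.09), Shmt2 (−0.05 ± 0.06) and Phgdh (0.03 ± 0.06) did not differ past the threshold, and 4 enzymes of the asparagine and proline pathways, Pycr1, Got1, Aldh18a1 and Asns, rose less on day 1, by 0.29 to 0.60.

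Other genes differed between the stages as well, Abra in direction. Abra, an actin-binding activator of muscle gene expression, fell on day 1 from 23.7 ± 0.77 to 8.04 ± 0.72 CPM, and rose in myotubes from 25.5 ± 0.58 to 39.5 ± 2.43 CPM (difference −2.19 ± 0.21, adjusted p = 5.84e-08). The treated samples of the stages went opposite ways. Ndrg1 rose on day 1 but had a log2 fold change of 0.00 in myotubes (difference 1.31 ± 0.10, adjusted p = 3.69e-09). Of 14 HIF targets, 9 fell in myotubes, and 5 had a higher log2 fold change on day 1 than in myotubes: Ndrg1, Bnip3 (1.16 ± 0.20), Egln3 (0.75 ± 0.21), Higd1a (0.65 ± 0.16) and Adm (2.75 ± 0.74), the last with too few counts to be tested on day 1 alone. Of 13 mitochondrially encoded genes, 6 fell in myotubes and none on day 1, and 5 differed between the stages, mt-Atp6, mt-Atp8, mt-Nd2, mt-Nd5 and mt-Co3, each higher on day 1 by 0.46 to 0.86. Of 30 sarcomere genes 9 had a lower response on day 1, Tcap (−1.16 ± 0.32), Mybpc1 (−0.95 ± 0.22) and Actn2 (−0.49 ± 0.10) among them.

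**Figure D5:**
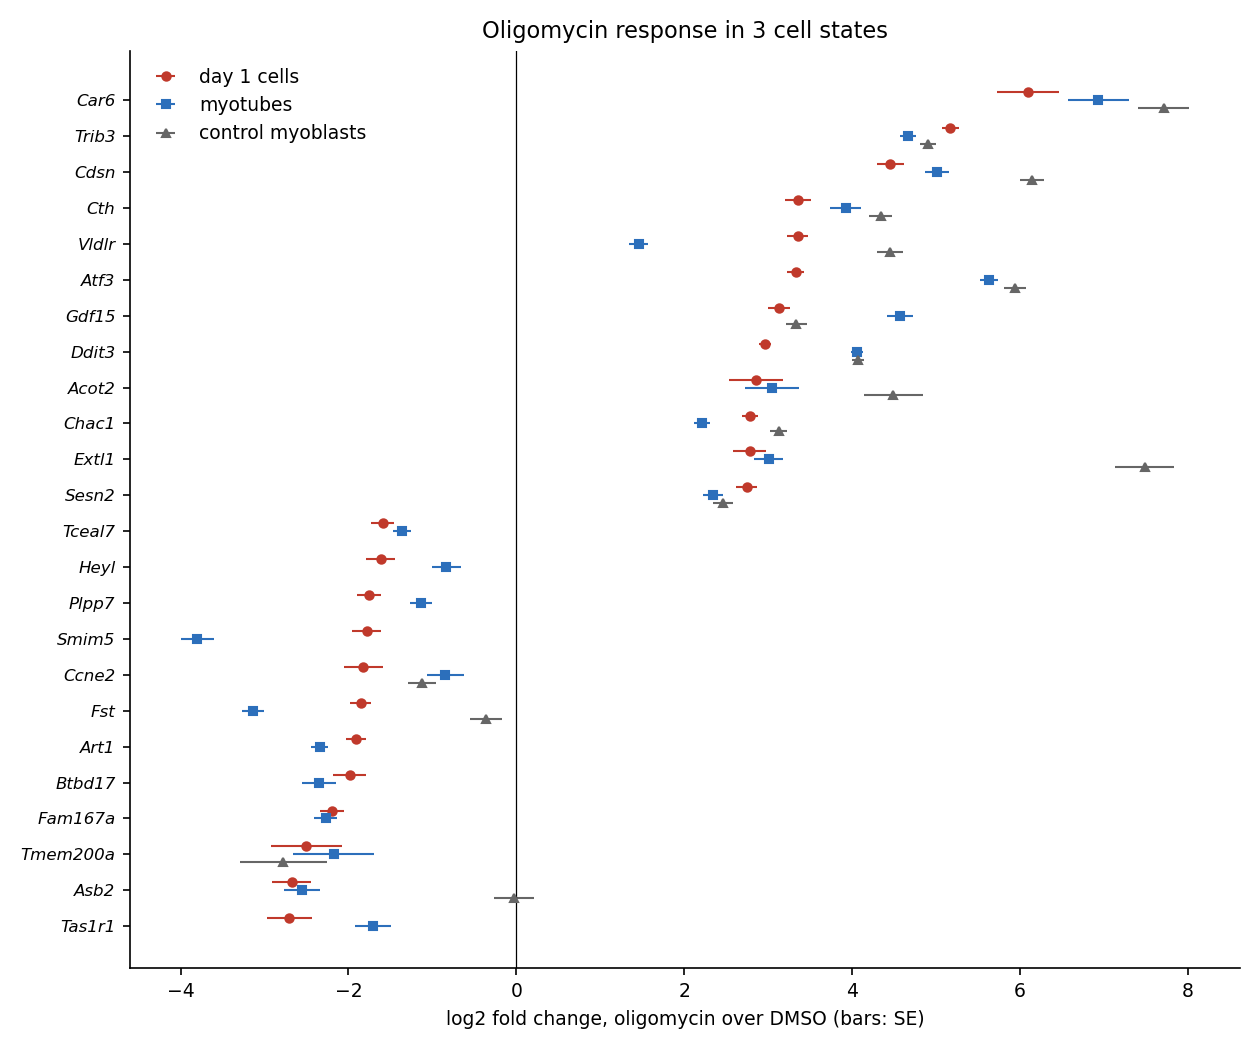
Log2 fold change with oligomycin over DMSO (± SE) of the 24 named genes in day 1 cells, myotubes and control myoblasts, drawn where the DMSO or oligomycin mean of that stage was at least 1 CPM. Trib3 lies near 5 in all stages (5.17, 4.67 and 4.90), whereas Atf3 lies at 3.33 on day 1 and at 5.63 and 5.93 in myotubes and myoblasts, and Asb2 is low in day 1 cells and myotubes and near 0 in myoblasts.

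Against myoblasts the response differed in 3048 genes (24.1%), 1623 higher (12.8%) and 1425 lower (11.3%) on day 1. The ISR rose more in myoblasts in 6 of 12 factors, with Atf3 (−2.60 ± 0.19), Ppp1r15a (−1.4 ± 0.11), Ddit3 (−1.11 ± 0.10) and Nupr1 (−1.07 ± 0.09) furthest apart, and in no case more on day 1. Trib3 (0.27 ± 0.14, adjusted p = 0.156) and Chac1 (−0.34 ± 0.14, adjusted p = 0.0686) did not differ past the threshold. Of the 9 secreted factors tested, 7 had a lower response on day 1 than in myoblasts and none a higher one. Fgf21 rose in myoblasts from 0.116 ± 0.061 CPM with DMSO to 8.03 ± 2.11 CPM with oligomycin, and its response on day 1 was lower (−3.95, adjusted p = 2.15e-09), a size that depends on the low myoblast control. Gdf15 (−0.21 ± 0.19, adjusted p = 0.463) and Vegfa (−0.25 ± 0.32, adjusted p = 0.631) did not differ past the threshold. Sterol synthesis genes fell in all 25 cases in myoblasts, with a median of −1.33, and the fall was smaller on day 1 in 22 of 25, for Idi1 by 1.76 ± 0.10 (adjusted p = 1.18e-14) and for Acat2 by 1.31 ± 0.10. S phase genes fell in 20 of 22 cases in myoblasts and differed in 6, with a higher log2 fold change on day 1 for Mcm7, Pcna, Mcm6, Rrm2 and Fen1 and a lower one for Mcm2. Asb2 fell on day 1 and was at 3.22 ± 0.86 and 3.10 ± 0.76 CPM in DMSO-treated and oligomycin-treated myoblasts (difference −2.65 ± 0.34, adjusted p = 4.66e-07).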

How the data were processed

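RNA of C2C12 cells was measured in 96 samples of 35 conditions; 9 samples of day 1 cells and 18 of myotubes and control myoblasts entered the fits, grouped by their titles. Libraries were made by the authors from polyA RNA (Smart-seq2), demultiplexed with bcl2fastq 2.20.0.422, quantified reads without strand against the GRCm38 transcriptome plus transgenes with kallisto 0.44, and summed transcripts to genes and over flow cells. The deposited values are their estimated counts for 54146 genes, unnormalized and whole. Read files were not used here. Doses come from the study's methods.

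A gene was tested if all replicates of some group held 16 counts or more. Tests used edgeR 4.0.16 (quasi-likelihood F test, TMM, robust) in R 4.3.3. The p-values were adjusted across all genes tested in a fit by Benjamini-Hochberg, with a threshold of 0.05. DESeq2 1.42.0 was an alternative and supplied rlog values for the principal components. CPM are TMM-scaled, separately over the 9 day 1 samples and over the 27 samples of all stages, and compare samples, not genes of different length. Standard errors are the absolute log2 fold change over the square root of F. Because strand was not used, genes whose exons overlap another gene are uncertain; beside those marked in the text, these include Arpp21, Bnip3, Ccna2, Cdkn1c, Ctgf, Dnaja1, Fen1, Higd1a, Klhl40, Myh1, Pfkp, Ppp1r15b, Prc1, Snhg3, Twnk and Txnip, among others. Scripts were tested on simulated data. Intervals cover counting error only. Same-numbered day 1 samples deviated together with a mean correlation of 0.054 (different numbers −0.027), so numbers were not treated as pairs.

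The comparison, its 34 gene lists and its tests were chosen with earlier results of these data known. Named genes were the 12 (5 for other comparisons) with the largest fold change in each direction among called genes with a mean of at least 50 counts and groups without overlap, leaving out predicted genes; in each list, up to 4 called members with the largest change and 2 others with the highest counts, or any member of lists of up to 15. Members that complete a count of 5 or fewer were named after their values were seen, unless not reported here by name. Alternatives were other size factors, no filter, DESeq2's test, a replicate block, only the groups compared and leaving out each sample.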

Additional observations from a re-analysis of the deposited data

Results flagged for a closer look

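The response to oligomycin was tested for a difference between day 1 cells and the other stages, and 483 genes differed from myotubes and 3048 from myoblasts at an adjusted p under 0.05 (edgeR, interaction). The results named by the rule for these comparisons follow, each as the difference of log2 fold changes, day 1 minus the other stage; no explanation of any was tested.

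Against myotubes, the positive differences were Hes1 (2.49), Scml4 (2.48), Pfkfb3 (2.07), Smim5 (2.02) and Vldlr (1.89). Vldlr rose in both stages, by 3.36 on day 1 and 1.46 in myotubes. Smim5 fell in both, by 1.77 and 3.80, so its difference is a smaller fall on day 1. Hes1 and Scml4 fell in myotubes, by 2.79 and 4.01. With DMSO on day 1 they measured only 3.42 and 5.38 CPM, from 34 to 47 and 47 to 81 counts. Scml4 fell on day 1 as well (−1.51 ± 0.30, adjusted p = 0.00133), and Hes1 did not pass there (−0.29 ± 0.31, adjusted p = 0.579). Hes1 is a repressor of the Notch pathway, and its difference was no longer called when any 1 of the 12 samples was left out. The lower responses were Rad54b (−4.05), Atf3 (−2.30), Abra (−2.19), B3gnt5 (−1.93) and Gdf15 (−1.44). Rad54b, a recombination gene, rose from 1.65 ± 0.83 to 26.1 ± 3.47 CPM in myotubes and was at 3.53 ± 0.98 and 3.42 ± 0.57 CPM with DMSO and oligomycin on day 1; it shares 2068 exon bases with Fsbp on the same strand, so reads could belong to either gene. B3gnt5 was no longer called in 5 of the 12 fits that left out a sample.

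Against myoblasts, the higher values were Myh3 (4.77), Klhl40 (4.49), Mylk4 (4.28), Arpp21 (3.92) and Mb (3.91), and the lower Trp63 (−5.91), Cox6a2 (−5.23), Extl1 (−4.70), Popdc2 (−4.03) and Fgf21 (−3.95). The DMSO mean of these genes in myoblasts was at most 0.417 CPM, so the fitted fold there depends on the prior count and is no measure of size. Of those that are above 5 CPM in treated myoblasts, Extl1 reached 17.0 CPM (SD 2.999), Cox6a2, a muscle cytochrome oxidase subunit, 12.1 ± 1.17 CPM and Fgf21 8.03 ± 2.11 CPM. The higher values do not mark rises on day 1. There Myh3 measured 1784 to 1852 CPM with DMSO and 1282 to 1443 with oligomycin, and Mb 45.5 to 49.6 and 33.2 to 38.4. Raw counts of Klhl40 (715 to 941 against 446 to 464) and Arpp21 (343 to 420 against 145 to 195) were lower with oligomycin too, and those of Mylk4 overlapped. In myoblasts each of these genes had 0 counts in every oligomycin sample and at most 7 with DMSO. The call of Mb was lost without myoblast DMSO replicate 2 (1.88, adjusted p = 0.408) or any 1 myoblast oligomycin sample (adjusted p = 0.0578 to 0.0715), that of Mylk4 without the same sample (3.62, adjusted p = 0.0786), that of Trp63 without myoblast oligomycin replicate 2 (−3.51, adjusted p = 0.196) and that of Arpp21 without myoblast oligomycin replicate 1 or 2 (adjusted p = 0.0566 and 0.0587).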

How the results depend on the processing

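No named gene changed direction, but the share of calls that were higher crossed 50% for oligomycin against DMSO (51.6%, 48.7% without the filter and 48.1% without oligomycin replicate 3), against piericidin (51.5%, 48.8% without oligomycin replicate 3) for the difference from myotubes (28.8%, 52.3% without the filter), for piericidin (50.1%, 42.3% without the filter) and within myotubes (54.1%, 48.7% without the filter). The count for oligomycin against DMSO on day 1 (2570) was 2560 with DESeq2's size factors, 2492 without the filter, 2172 with DESeq2's test, 2564 with only the groups compared and 1985 to 2315 without 1 sample; 1573 of the genes were called in all 6 of those fits. Samples with the same number did not pair, and the replicate block gave 2581 calls (1868 against piericidin, 405 for piericidin, 478 against myotubes, 3029 against myoblasts) and changed no named call. Leaving out 1 sample gave 201 to 291 calls for piericidin against DMSO (425) and 265 to 434 for the difference from myotubes (483). The first component carried 30.1% of the variance with genes scaled (35.1% on log2 CPM, 59.7% for the 500 most variable genes, 45.9% to 54.4% without 1 sample). Of the named genes, 687 alternative values kept their call and 27 lost it, those of Hes1, B3gnt5, Mb, Arpp21, Mylk4 and Trp63; Mb lost it also without the filter (adjusted p = 0.0604) and with only the groups compared (0.0563). The cause of these changes was not tested. Of list counts, 690 stayed within 1.5 times and 58 moved. Precision differed between genes: Tcap, below 4 CPM, had an SE of 0.38 on the log2 scale, against 0.04 for Atf4. Acot2, with a mean of 761 counts, had an SE of 0.51.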
